A study of Mus musculus with 4 samples.

Results

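The genes described here are 10 CXC chemokines, taken as every oligonucleotide whose annotated gene symbol was exactly Cxcl1, Cxcl2, Cxcl5, Cxcl9, Cxcl10, Cxcl11, Cxcl12, Cxcl13, Cxcl14 or Cxcl16. All 10 were found, each with 1 oligonucleotide printed as 2 spots, among 11138 genes measured with 12172 oligonucleotides. RNA of cardiac endothelium, the inner cell layer of the vessels of the heart, came from mice that had received LPS, an outer membrane component of Gram-negative bacteria, or saline into the peritoneum, and was compared 4 h and 24 h later. The RNA was amplified, and LPS and saline RNA were hybridised together to 2-colour long oligonucleotide arrays, 2 per time. On replicate 1 of each time LPS RNA carried Cy5 and saline RNA Cy3, and on replicate 2 the dyes were exchanged. The labels name no strain, sex, age, LPS dose, number of animals or separate extract for the exchanged array, so the arrays of a time were counted as 1 replicate. Nor do they say whether both times shared their saline RNA.

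CXC chemokines are small secreted proteins that guide leukocytes through receptors of the CXCR family, and endothelial cells both make them and display them on their surface. Members with a glutamate-leucine-arginine motif before the conserved cysteines, such as Cxcl1, Cxcl2 and Cxcl5, attract neutrophils through Cxcr2. Cxcl9, Cxcl10 and Cxcl11 are interferon-inducible ligands of Cxcr3 on T and natural killer cells, while Cxcl12, Cxcl13, Cxcl14 and Cxcl16 have roles in the homing and retention of cells at rest.

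Values are log2 ratios of LPS over saline, for a spot as deposited with the sign of replicate 2 turned, and for a gene as the mean of its spots, centred on the array's median over genes. Each ± is an SD over the arrays at one time (n = 2 arrays). It takes in hybridisation and dye. Whether it also takes in differences between mice or extracts is unknown, so it is not read as a spread between mice. The table does not state its direction. That the values are ratios of dye over dye was taken from the deposited values of the arrays of a time. These ran against each other for oligonucleotides whose spots lay within 0.5 of each other and held no ratio of exactly 1 on both arrays. The correlation was -0.37 over 5023 such oligonucleotides at 4 h and -0.50 over 3668 at 24 h. Over all spots the correlations were only -0.056 and -0.064. These correlations are the same for Cy5 over Cy3 and for Cy3 over Cy5, so no value here settles which dye is on top. Cy5 over Cy3, the usual form of such ratios, was assumed, and with the dyes in the labels it gives LPS over saline. Every "higher", "lower" and rank below is written under this assumption, and all signs would switch under the reverse reading, while sizes and counts of calls in either direction would stay. If the sign of replicate 2 were left as deposited, 0 of 10 members would be called at either time, and both arrays were 2-fold in opposite turned directions for 1.42% of all genes at 4 h and 3.69% at 24 h. The call of a gene asked that both arrays lie at least 1 log2 unit (2-fold) from 0 on the same side. The table holds ratios and no intensities, so no level of a gene in LPS or saline is known. Precision is limited by having 2 arrays a time.

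Under the assumed direction, the CXC chemokines at 4 h split into 5 called higher, 1 called lower and 4 not called. Cxcl1 and Cxcl2 were 14.3-fold and 13.3-fold higher with LPS, and Cxcl9, Cxcl10 and Cxcl11 were 5.11-fold, 5.18-fold and 4.33-fold higher. Cxcl12, which retains leukocytes and progenitors through Cxcr4, was 3.51-fold lower. The 6 of 10 called members stand beside 3.25% of all genes called at 4 h, and all 6 were also 2-fold in every spot on both arrays, beside 1.58% of all genes (1.25% higher, 0.332% lower). At 24 h only Cxcl1 was still called, 1 of 10 beside 7.00% of all genes, and it was also 2-fold in every spot, beside 3.60% in either direction and 1.92% higher. The median of the 10 members was 1.58 at 4 h and 0.16 at 24 h, beside medians of -0.016 and -0.021 over all genes. These RNAs came from isolated tissue, so a change in the share of a cell type and a change in RNA per cell cannot be told apart.

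**Figure D1:**
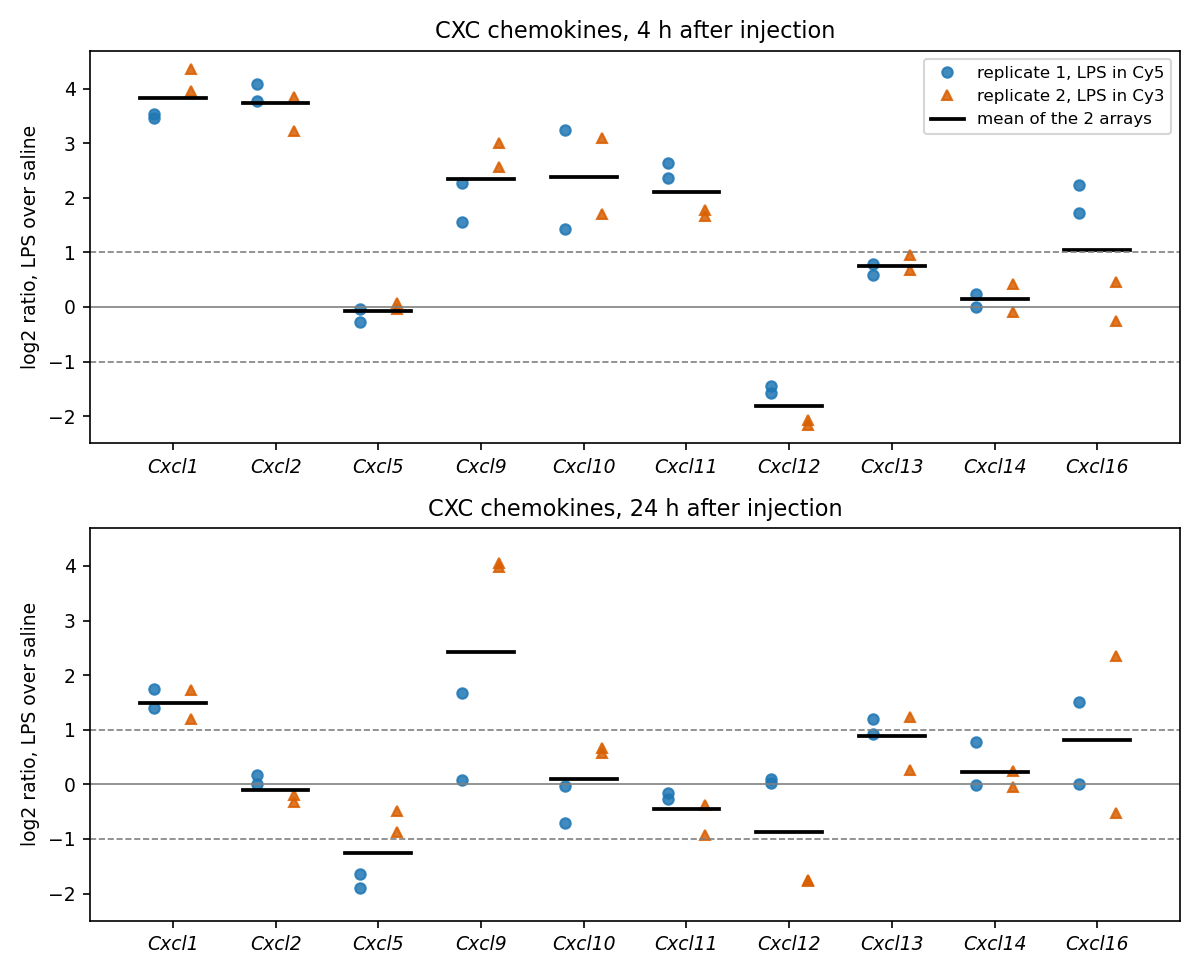
Log2 ratio of LPS over saline (vertical axis) for each of the 2 spots of the 10 CXC chemokines (horizontal axis) at 4 h (top) and 24 h (bottom). Circles are replicate 1, triangles replicate 2 with its sign turned, black lines the mean of the 2 arrays, and dashed lines the 2-fold limits. At 4 h every spot of Cxcl1, Cxcl2, Cxcl9, Cxcl10 and Cxcl11 lies above the upper limit and every spot of Cxcl12 below the lower one, while at 24 h Cxcl1 alone has all spots past a limit.

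Among the neutrophil attractants, Cxcl1, the mouse chemokine also known as KC, was the member with the highest mean at 4 h. Its spots read 3.47 and 3.53 on replicate 1 and 4.37 and 3.95 on replicate 2, a mean of 3.84 ± 0.46. It ranked 15 from the top of 11138 genes by this mean, but 152 on replicate 1 and 7 on replicate 2. The SD over all spots was 1.59 on replicate 1 of 4 h and 0.98 on replicate 2. All spots lay far above the 2-fold limit and replicate 2 was the higher array. At 24 h its spots read 1.39 and 1.75 on replicate 1 and 1.72 and 1.20 on replicate 2, a mean of 1.49 ± 0.14 or 2.82-fold, and its rank was 455. The spots of the arrays overlapped at 24 h and did not at 4 h.

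Cxcl2, also known as MIP-2, was nearly as high at 4 h. Its spots read 3.76 and 4.09 on replicate 1 and 3.85 and 3.22 on replicate 2, a mean of 3.74 ± 0.29, at rank 19. By array its rank was 121 on replicate 1 and 26 on replicate 2. At 24 h they read 0.014 and 0.16 on replicate 1 and -0.20 and -0.32 on replicate 2, with a mean of -0.11 ± 0.31 at rank 6242. Cxcl2 therefore stood beside Cxcl1 at 4 h and in the middle of all genes at 24 h. The spots of replicate 1 lay just above 0 and those of replicate 2 below it.

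Cxcl5, also known as LIX, was not called at either time. At 4 h its array values were -0.15 and 0.014, a mean of -0.067 ± 0.11, in contrast to the values of Cxcl1 and Cxcl2 given above. At 24 h its spots read -1.91 and -1.64 on replicate 1 and -0.50 and -0.88 on replicate 2, a mean of -1.25 ± 0.71. All 4 spots were below 0, but only those of replicate 1 were past 2-fold.

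Cxcl1 and Cxcl2 are neighbours on chromosome 5, with no other protein-coding gene between them in the RefSeq table of assembly GRCm38.p6, and of the 10 members 7 lie on that chromosome. Cxcl5 lies near them, with the 4 genes Ppbp, Pf4, Cxcl3 and Cxcl15 between it and Cxcl1. Promoter windows, from 250 bases before to 50 bases after the annotated start, were held for 7 of the 10 members in RefSeq sequences of GRCm38.p6, and for Cxcl5, Cxcl11 and Cxcl16 none was used. The windows were searched on both strands for GGGAANTTCC, a narrow form of the site bound by NF-kB, for the broader NF-kB consensus, which overlaps the narrow form, for GAAANNGAAA, the core of the interferon-stimulated response element, and for TTCNNNGAA, the palindrome bound by Stat factors. These letters were chosen after the promoters had been read, so matches in members were known beforehand. The shares over all windows say how common the letters are and test nothing about the members. Cxcl1, Cxcl2 and Cxcl10 held the narrow form, as did 112 of 32851 RefSeq promoter windows (0.341%). The bases before the start of these 3 genes are shown because they hold the shared letters, with matches to GGGAANTTCC and GAAANNGAAA in capitals. They are at chr5:90891125-90891244 (+ strand) for Cxcl1, chr5:90903779-90903898 (+ strand) for Cxcl2 and chr5:92348890-92349109 (- strand) for Cxcl10, each ending at the base before the start.
Cxcl1: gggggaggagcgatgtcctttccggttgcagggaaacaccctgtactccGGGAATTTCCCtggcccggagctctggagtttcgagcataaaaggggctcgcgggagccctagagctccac
Cxcl2: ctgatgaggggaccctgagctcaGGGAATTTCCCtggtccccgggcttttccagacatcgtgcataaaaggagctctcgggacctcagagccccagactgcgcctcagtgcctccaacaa
Cxcl10: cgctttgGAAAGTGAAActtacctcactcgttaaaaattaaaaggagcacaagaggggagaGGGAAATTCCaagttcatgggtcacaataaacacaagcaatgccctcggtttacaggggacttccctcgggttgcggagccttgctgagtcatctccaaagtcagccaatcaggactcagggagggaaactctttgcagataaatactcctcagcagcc

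The matches of Cxcl1 and Cxcl2 read the same and sit in a run of 14 identical bases, GGGAATTTCCCTGG. In both genes GGGAATTTCCC holds overlapping matches on the 2 strands, which were counted as 1, and it starts 71 bases before the start of Cxcl1 and 97 bases before that of Cxcl2. In Cxcl10 the match reads GGGAAATTCC, starting 159 bases before the start, and a further match to the broader consensus, GGGACTTCCC, starts 103 bases before it. The broader consensus was found in the same 3 members and in 4.51% of all windows. GAAANNGAAA was found in Cxcl10, starting 213 bases before the start, in Cxcl14, and in 3.44% of all windows. TTCNNNGAA was found in Cxcl14 and in 8.30% of all windows. The windows of Cxcl9, Cxcl12 and Cxcl13 held none of these letters. A match is a description of the sequence, and no binding was measured here.

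**Figure D2:**
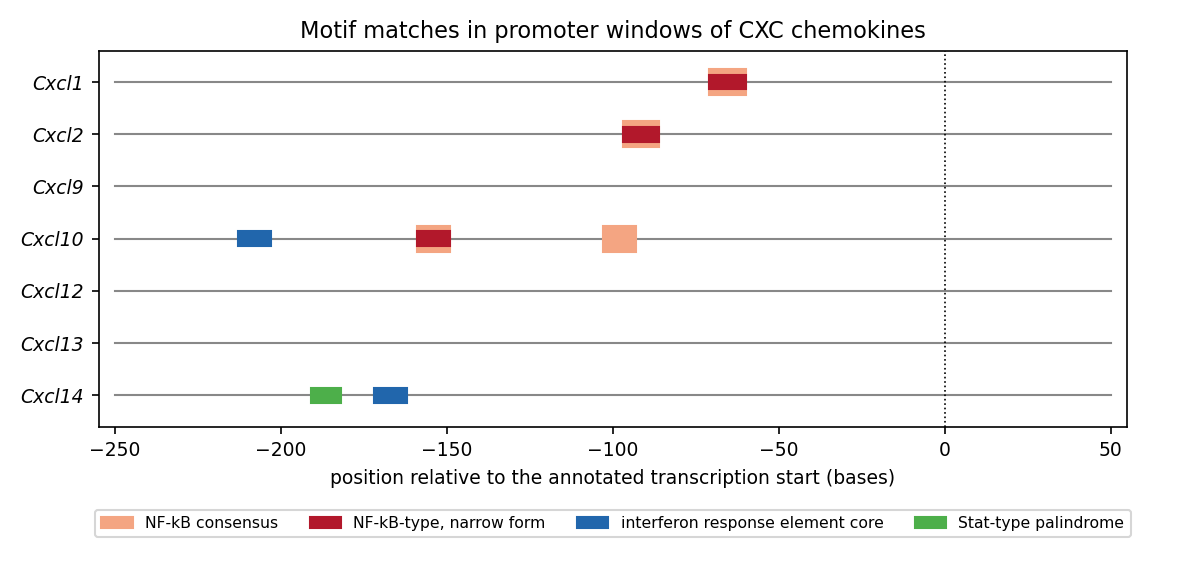
Motif matches in the promoter windows of the 7 members with a RefSeq promoter sequence, by position in bases relative to the annotated start (horizontal axis, dotted line at the start). Pale red boxes are the NF-kB consensus, dark red its narrow form, blue the interferon response element core and green the Stat-type palindrome, and the matches of Cxcl1, Cxcl2 and Cxcl10 all lie before the start.

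The interferon-inducible ligands of Cxcr3 were all called higher at 4 h and differed from each other at 24 h. Cxcl10, also known as IP-10, read 1.43 and 3.24 on replicate 1 and 1.71 and 3.09 on replicate 2 at 4 h, a mean of 2.37 ± 0.041. The same spot of the pair was the higher one on both arrays, by 1.81 and 1.38, where the median oligonucleotide had spots 0.41 and 0.24 apart. The small SD of Cxcl10 therefore describes the arrays and not the spots. At 24 h its spots read -0.71 and -0.029 on replicate 1 and 0.67 and 0.57 on replicate 2, so that 1 array lay below 0 and the other above, with a mean of 0.10 ± 0.64.

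Cxcl9, also known as Mig and classically induced by interferon gamma, read 1.55 and 2.26 on replicate 1 and 3.0 and 2.57 on replicate 2 at 4 h, a mean of 2.35 ± 0.61. At 24 h its mean was as high, 2.43 ± 2.16, but the arrays were far apart. The spots of replicate 1 read 1.67 and 0.084, an array value of 0.90 just under the 2-fold limit, and those of replicate 2 read 3.98 and 4.05. Cxcl9 was therefore not called at 24 h, and its fold there rests on replicate 2.

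Cxcl11, also known as I-TAC, read 2.63 and 2.36 on replicate 1 and 1.77 and 1.66 on replicate 2 at 4 h, a mean of 2.11 ± 0.56. At 24 h all 4 spots were below 0, at -0.15 and -0.26 on replicate 1 and -0.93 and -0.38 on replicate 2, a mean of -0.45 ± 0.38, and none was past 2-fold. The RefSeq table lists Cxcl11 of assembly GRCm38.p6, which is of the strain C57BL/6J, as a transcribed pseudogene, so these ratios are of a transcript. Cxcl10 and Cxcl11 are neighbours on chromosome 5, and Art3 lies between Cxcl9 and Cxcl10.

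Cxcl12, also known as SDF-1, was the member called lower at 4 h. Its spots read -1.58 and -1.45 on replicate 1 and -2.17 and -2.07 on replicate 2, a mean of -1.81 ± 0.44, at rank 179 from the bottom. The spots of an array lay within 0.13 of each other on every array. At 24 h they read 0.029 and 0.098 on replicate 1 but -1.76 and -1.76 on replicate 2, a mean of -0.87 ± 1.35. The spots of each array thus lay close together at 24 h while the arrays differed, and Cxcl12 was not called.

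The remaining members were not called at either time. Cxcl13, which attracts B cells through Cxcr5, had array values of 0.69 and 0.81 at 4 h, a mean of 0.75 ± 0.084 or 1.69-fold, and of 1.08 and 0.68 at 24 h, a mean of 0.88 ± 0.28 or 1.84-fold. All of its 8 spots were above 0. Cxcl14 was close to 0, at 0.15 ± 0.027 at 4 h and 0.22 ± 0.26 at 24 h. Cxcl16, a membrane-anchored ligand of Cxcr6 that also binds oxidised lipoprotein, read 2.24 and 1.72 on replicate 1 but 0.45 and -0.26 on replicate 2 at 4 h, a mean of 1.04 ± 1.34. At 24 h its mean was 0.81 ± 0.051, yet its spots ran from -0.53 to 2.34 on replicate 2, so the low SD says little. Cxcl16 was past 2-fold at 4 h on replicate 1 alone.

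Between the times, the question was which members differed at 24 h from 4 h, by means at least 2-fold apart and both arrays of one time above both of the other. By this rule 5 of 10 members were lower at 24 h and 0 higher, beside 10.3% of all genes lower, 9.43% higher and 19.8% in either direction. The 24 h mean minus the 4 h mean was -3.84 for Cxcl2, or 14.4-fold, -2.57 for Cxcl11, -2.34 for Cxcl1, -2.27 for Cxcl10 and -1.18 for Cxcl5. Every spot of these 5 genes at 24 h lay below every spot at 4 h. Spots so separated, together with means at least 2-fold apart, were found for 4.78% of all genes, or 8.83% in either direction. Cxcl5 differed in kind, since it was near 0 at 4 h and below 0 at 24 h, whereas the others were high at 4 h. Its call ended with quantile or scale normalization, at differences of -0.91 and -0.94, and without replicate 1 of 24 h, at -0.68. Cxcl12 had a difference of 0.94 and was not called, but with scale normalization (1.75), without replicate 1 of 4 h (1.25) or without replicate 2 of 24 h (1.90) it was called higher at 24 h, and without replicate 1 of 24 h its difference was -0.012. Cxcl9 at 0.074, Cxcl13 at 0.13, Cxcl14 at 0.074 and Cxcl16 at -0.23 were not called. Cxcl9 became higher without replicate 1 of 24 h and lower without replicate 2, and Cxcl16 became lower without replicate 2 of 4 h. With 1 array left out the rule called 26.6% to 35.9% of all genes in either direction, more than with all arrays.

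**Figure D3:**
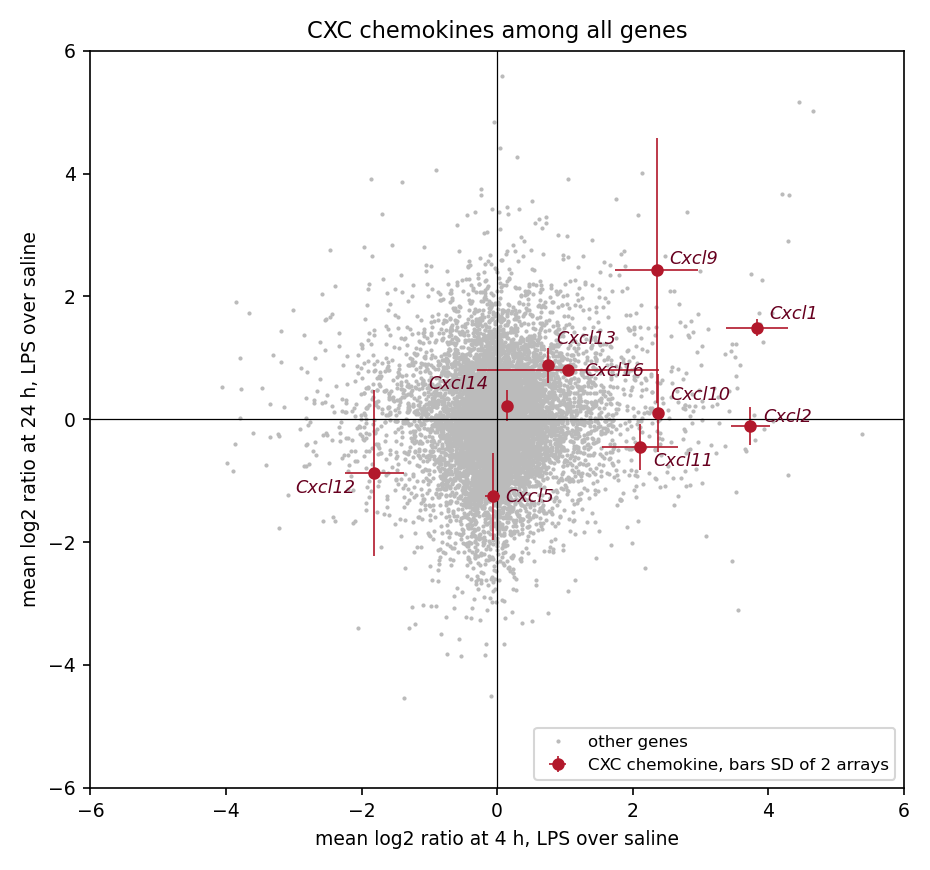
Mean log2 ratio of LPS over saline at 24 h (vertical axis) against 4 h (horizontal axis) for the CXC chemokines (red, bars are the SD of 2 arrays) and all other genes (grey). Cxcl1, Cxcl2, Cxcl9, Cxcl10 and Cxcl11 lie to the right, and of these Cxcl2, Cxcl10 and Cxcl11 are near 0 at 24 h while Cxcl9 has a 24 h bar of 2.16 to either side.

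As separate samples in limma, with all 4 arrays in the fit, no member had an adjusted p (Benjamini-Hochberg over all genes) under 0.05, nor did any other gene. At 4 h 6 of 10 members had an unadjusted p under 0.05, beside 4.26% of all genes, and the smallest adjusted p was 0.393, for Cxcl1 and Cxcl2. At 24 h 3 of 10 did, Cxcl1, Cxcl5 and Cxcl9, beside 10.1% of all genes, and the smallest adjusted p of a member was 0.415, for Cxcl1. Between the times 4 of 10 did, beside 5.73%, with a smallest adjusted p of 0.804. The calls above are thus criteria of size on both arrays and not tests.

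None of 7 measured receptors of these chemokines was called at 4 h, beside 3.25% of all genes, so that a count of 0 is near the background. Their means ran from -0.21 for Cxcr6 to 0.36 for Ackr3, the scavenging receptor of Cxcl12. Cxcr2, the receptor of Cxcl1, Cxcl2 and Cxcl5, was at 0.032 ± 0.17 at 4 h and -0.13 ± 0.27 at 24 h. Cxcr3 was at -0.093 ± 0.20 and -0.061 ± 0.25, and Cxcr4, the signalling receptor of Cxcl12, at -0.051 ± 0.37 and -0.00080 ± 1.22. At 24 h Cxcr6, the receptor of Cxcl16, was called higher with array values of 1.68 and 1.09, a mean of 1.38 ± 0.42, though not in every spot. This was 1 of 7 receptors beside 7.00% of all genes called at 24 h. Cxcr5 at -0.11 ± 0.019 and 0.40 ± 1.12, Ackr1, a receptor on venules that binds and presents chemokines, at 0.080 ± 0.71 and 0.63 ± 0.35, and Ackr3 at -0.16 ± 1.15 at 24 h were not called.

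Of the other CXC chemokines, the 3 measured genes were not called at either time. The platelet chemokines Pf4 and Ppbp, which lie in the same cluster as Cxcl1, were at 0.84 ± 1.27 and 0.18 ± 0.0038 at 4 h and at 0.93 ± 0.13 and 0.47 ± 0.69 at 24 h. Cxcl15, known as lungkine, was at 0.65 ± 0.46 and -1.31 ± 1.17. Cxcl3 and Cxcl17 were not named on the array.

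In the path from LPS to NF-kB, which drives Cxcl1 and Cxcl2 in many cells, 3 of 25 measured genes were called higher and 0 lower at 4 h, beside 2.25% and 0.997% of all genes, and the median of the list was 0.42. They were Rela, the p65 subunit, at 1.57 ± 0.28, Lbp, which hands LPS to its receptor, at 1.64 ± 0.10, and Tnip1, a partner of the inhibitor A20, at 2.69 ± 0.51. At 24 h Rela was at -0.22 ± 0.14. Lbp at 1.91 ± 0.92, Tnip1 at 1.87 ± 0.22 and Tab2, an adaptor of the kinase Tak1, at 2.03 ± 1.09 were called higher at 24 h, and A20 (Tnfaip3) was called lower at -1.80 ± 0.36, beside 3.48% of all genes higher and 3.52% lower, with a list median of 0.13. Tlr4, the LPS receptor, was at -0.23 ± 0.23 and 0.13 ± 0.27, and the NF-kB inhibitor Nfkbia, at 0.86 ± 1.63 at 4 h, was not called with arrays at 2.01 and -0.29.

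In the interferon path, the route to Cxcl9, Cxcl10 and Cxcl11, 3 of 17 measured genes were called higher and 0 lower at 4 h, beside 2.25% and 0.997% of all genes, with a list median of 0.42. Stat2, a transcription factor of the type I interferon response, was at 2.54 ± 0.30, and the interferon regulatory factors Irf1 and Irf7 were at 1.96 ± 1.33 and 1.91 ± 1.05. At 24 h Stat2 at 2.09 ± 0.10 and Irf7 at 2.14 ± 0.13 were called higher and Irf2, which represses Irf1 targets, was called lower at -1.72 ± 0.41, beside 3.48% of all genes higher and 3.52% lower. Irf1 was at 0.39 ± 0.27, and the list median was -0.025. The ligand genes Ifng and Ifnb1 were not called, at -0.33 ± 0.81 and -0.11 ± 0.31 at 4 h. Stat2 was 2-fold in every spot at both times, while Irf1 and Irf7 at 4 h were not.

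Of 11 measured genes for the processing of CXC chemokines and the control of their transcripts, 1 was called, Hif1a, a hypoxia-inducible factor linked to Cxcl12 expression. It was at 3.75 ± 0.025 at 4 h and 2.37 ± 0.10 at 24 h, and its part in the values of Cxcl12 was not tested. The share of all genes called was 3.25% at 4 h and 7.00% at 24 h, and the list medians were 0.19 and -0.18. The proteases that cut Cxcl16 from the membrane, Adam10 and Adam17, were at 0.19 ± 0.53 and -0.15 ± 0.18 at 4 h. Dpp4, which trims Cxcl10 and Cxcl12, was at -0.26 ± 0.12. Zfp36, which destabilises Cxcl1 and Cxcl2 transcripts, was at 0.76 ± 0.12 at 4 h and 1.09 ± 0.53 at 24 h and was not called.

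**Figure D4:**
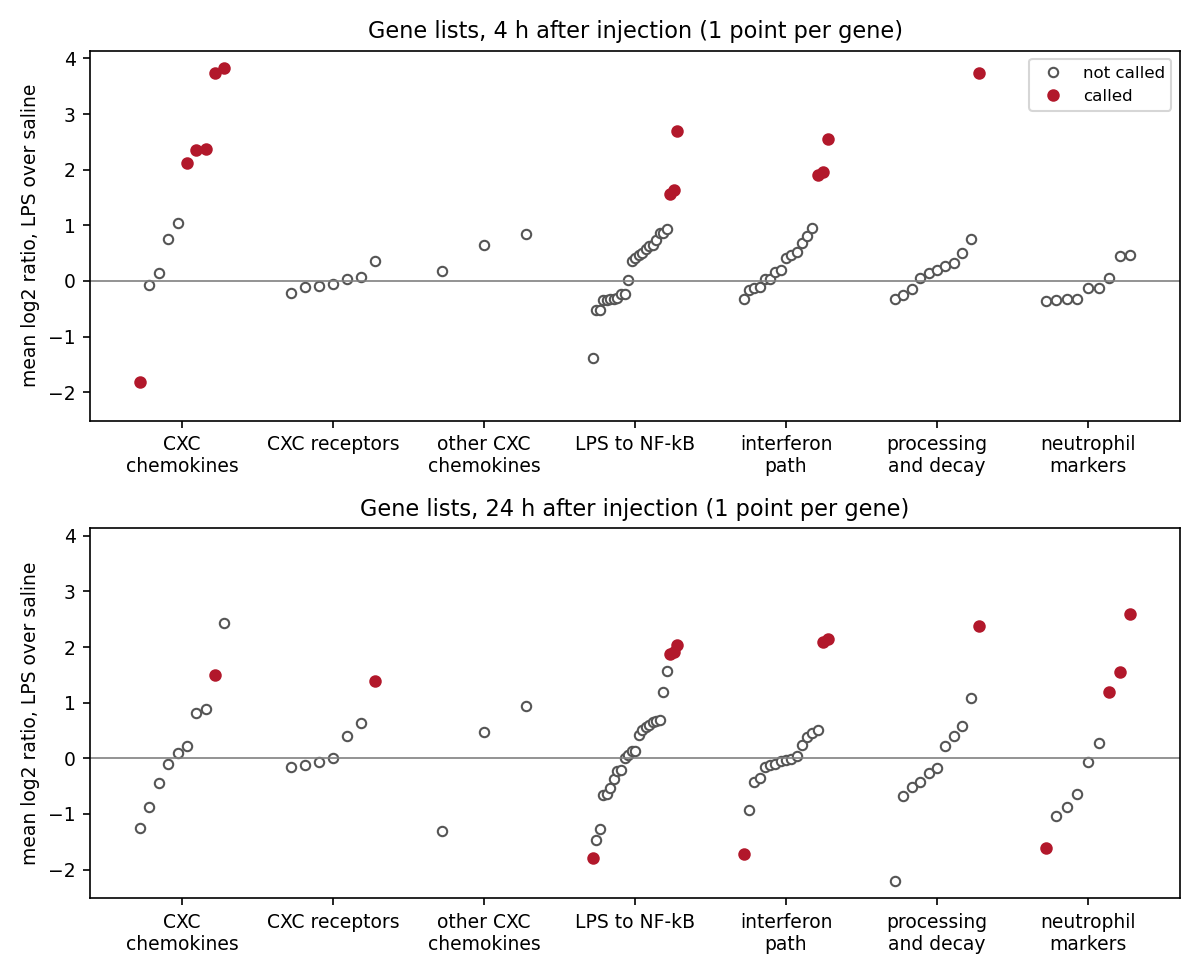
Mean log2 ratio of LPS over saline (vertical axis) for each gene of the CXC chemokines, 5 lists of related genes and the neutrophil markers at 4 h (top) and 24 h (bottom), with called genes filled in red and others open. At 4 h called genes are 6 of 10 CXC chemokines and 0 of 7 receptors, beside 3.25% of all genes, and at 24 h they are 1 of 10 and 1 of 7, beside 7.00%.

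Markers of cells that could share the isolate were set beside these values. At 4 h 0 of 9 neutrophil, 8 monocyte and macrophage, 8 lymphocyte, 7 fibroblast, 6 smooth muscle and pericyte, 4 platelet, 3 erythrocyte and 11 cardiomyocyte markers were called, beside 3.25% of all genes, and the neutrophil markers ran from -0.36 to 0.46. At 24 h the neutrophil markers ran from -1.62 to 2.59, with S100a8 at 2.59 ± 1.17, S100a9 at 1.55 ± 0.084 and Fpr2 at 1.20 ± 0.078 called higher and Ngp at -1.62 ± 0.82 called lower, beside 3.48% of all genes higher and 3.52% lower, at the time at which Cxcl1 was the 1 called member. The median of the 9 neutrophil markers was -0.072 at 24 h. The part of these markers in the 24 h values was not tested. Also at 24 h 1 of 11 cardiomyocyte markers, Ryr2 at -1.40 ± 0.11, and 1 of 8 lymphocyte markers, Cd5 at -2.0 ± 1.0, were called lower. Of 3 erythrocyte markers 1, Klf1 at 2.01 ± 0.24, was called higher, beside the same shares of all genes. Of Ryr2, Cd5 and Klf1, only Cd5 was 2-fold in every spot. Of the called neutrophil markers S100a8 and S100a9 were, and Fpr2 and Ngp were not, beside 1.92% of all genes higher and 1.68% lower. No monocyte and macrophage, fibroblast, smooth muscle and pericyte or platelet marker was called at 24 h. The 13 endothelial markers ran from -1.89 to 1.29 at 4 h. Of these, Cldn5 was called higher at 4 h, at 1.29 ± 0.10. Kdr and Eng were called lower at 4 h, the time at which Cxcl12 was called lower, at -1.89 ± 0.75 and -1.87 ± 0.84. The shares of all genes at 4 h were 2.25% higher and 0.997% lower. At 24 h Kdr and Eng, 2 of 13, were called higher at 2.21 ± 0.48 and 3.91 ± 0.85, beside 3.48% of all genes. The part of these markers in the values of Cxcl12 was not tested. Pecam1 and Cdh5 were at 0.0079 ± 0.14 and 0.0068 ± 0.27 at 4 h. Ratios do not show whether these markers were present, so the labelled cell type could not be checked by level.

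The genes most like each called member were found by the Euclidean distance of their values over the 4 arrays. For Cxcl1 they were Ifit2, an interferon-induced protein, at a distance of 0.52, the receptor Tlr2 at 0.98 and Cmpk2 at 1.11, all with array values between 3.30 and 4.01 at 4 h. For Cxcl2 they were Mx2 at 1.26, Snx10 at 1.37 and Akap12 at 1.54, and the closest member was Cxcl10, at place 22. For Cxcl10 they were Stx11 at 0.60, Niban1 at 0.77 and Ctnnb1 at 0.88, and for Cxcl11 Wdr45b at 0.52, Tuba1a at 0.65 and Bag4 at 0.75. For Cxcl9 the nearest, Ifitm3 at 1.41, Katna1 at 1.46 and Mrps7 at 1.54, were farther off and shared its wide gap between the arrays of 24 h. For Cxcl12 they were Krt23 at 0.59, Rpl24 at 1.08 and Rab28 at 1.17, each of them near 0 on replicate 1 of 24 h and at -1.94, -2.65 and -2.12 on replicate 2. With 4 arrays, such likeness is a description of these arrays.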

How the data were processed

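The authors deposited a table of log2 ratios of the dyes for 32448 spots on each of 4 arrays. Each array's median was 3e-07. Ratios of exactly 1 made up 10.2% to 13.4% of the spots of an array. For background correction, dye normalization and filters the sources used here give no method. Adjacent spots held the same oligonucleotide. The platform annotation gave 1 gene symbol for 24344 spots (75.0%), several for 98 and none for 8006. Entrez identifiers changed 0 symbols. Replicate 2 was turned, spots were averaged to oligonucleotides and then genes, and each array was centred on its gene median (Python 3.11.15, pandas 2.3.3).

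Since a dye-reversed pair counted as 1 replicate, genes were called by size. limma 3.58.1 in R 4.3.3 was an alternative, with Benjamini-Hochberg adjustment. Other alternatives concerned centring, scale, spots, fold and sign.

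Named genes were the 10 chemokines with all spots, the 3 genes nearest to each called member, called genes of the lists, and all measured receptors and other CXC chemokines. A few uncalled genes of the lists were named after their values were seen. Members and lists were chosen with earlier results of these data known.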

Additional observations from a re-analysis of the deposited data

Results flagged for a closer look

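Cxcl11 lay on opposite sides of 0 at the times on every array. Its array values were 2.51 and 1.72 at 4 h and -0.18 and -0.72 at 24 h, so that the 24 h mean was -2.57 from the 4 h mean. With the arrays as separate samples, limma gave this difference an adjusted p of 0.804. No other member had both arrays of one time above 0 and both of the other below it. The rule asked for no size, and neither 24 h array value of Cxcl11 was past 2-fold. How many of all genes met the rule was not counted, so this flag has no background beside it.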

How the results depend on the processing

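The 6 calls of 4 h and the call of Cxcl1 at 24 h held under each of 5 alternatives, no centring, quantile normalization, scale normalization, medians over spots and ratios of exactly 1 left out. Sizes were less steady than calls. With scale normalization the 4 h means were 5.16 for Cxcl1, 4.93 for Cxcl2 and -2.46 for Cxcl12. The difference between times was then -3.95 for Cxcl1. Cxcl10 at 4 h became 3.16 ± 0.64 with scale and 2.59 ± 0.81 with quantile normalization. The calls ended where the sign of replicate 2 was not turned, which gave 0 members called at 4 h, at 24 h and between the times. Means were then -0.32 for Cxcl1, -0.43 for Cxcl9, -0.029 for Cxcl10 and 0.31 for Cxcl12 at 4 h, and the differences between times 0.42 for Cxcl1 and 0.015 for Cxcl2. limma on the arrays as separate samples called 0 members and 0 genes in each comparison. At 3-fold 0 members were called at 24 h and Cxcl12 was lost at 4 h, and at 1.5-fold 5 were called at 24 h, beside 16.2% of all genes. With 1 array of 24 h left out, 3 members were past 2-fold at 24 h, whichever array it was, Cxcl1 with Cxcl9 and Cxcl12 on replicate 2 and with Cxcl5 and Cxcl13 on replicate 1. On 1 array of 24 h, 3239 to 3408 of all 11138 genes were past 2-fold, so this count is at the background.

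At 4 h the calls numbered 362 genes of the whole array (251 higher, 111 lower). They numbered 561 with quantile normalization (328 higher, 233 lower), 591 with scale normalization, 158 without turning, 941 at 1.5-fold, 126 at 3-fold, 176 by every spot and 1414 to 2317 on 1 array. At 24 h 780 were called, and 470 with scale normalization, 411 without turning, 1808 at 1.5-fold, 235 at 3-fold and 401 by every spot. No paired analysis was possible because each time has 1 replicate and the labels carry no replicate numbers. Without intensities, signal over background is unknown.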
